A study of Mus musculus with 12 samples.

Results

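A set of 10 genes of contraction and basal cell identity were followed through all the libraries of a mouse mammary tumor series, namely Acta2, Actg2, Myh11, Mylk, Tagln, Cnn1, Lmod1, Oxtr, Trp63 and Myocd. They were chosen by name, as genes of the contractile apparatus, its receptor and its transcription factors, but with earlier results of these data known. They make up 10 of the 16411 genes in the deposited table. RNA was sequenced from 6 HER2-driven mammary tumors and from 6 samples of benign mammary tissue. All animals were female mice of the MMTV-Neu-NDL-YD5 line on an FVB background, heterozygous for an activated neu (HER2) transgene that the MMTV promoter drives in mammary epithelium. The benign samples therefore carried the transgene too. They were mammary tissue without visible tumor, taken far from any tumor site, and for RNA they came from other mice than the tumors did. Neither group was treated, and the labels give no age for a sample.

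The mammary epithelium has an inner luminal layer, which makes milk, and an outer basal layer of myoepithelial cells. Myoepithelial cells are epithelial in origin, with basal keratins and the transcription factor p63, and yet they hold the actin and myosin isoforms of smooth muscle, with which they squeeze milk into the ducts when oxytocin reaches its receptor. The muscle cells of blood vessels use most of the same contractile genes, so bulk RNA of these genes has more than a single cell source. Many of them are known targets of SRF, a factor that binds the CArG box, and of its cofactors myocardin and the MRTF proteins.

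Total counts ran from 5240853 to 8170687 in benign tissue and from 6111393 to 8588567 in tumors. Levels are given as CPM, counts scaled to a common library size after TMM scaling. Tumors were compared to benign mammary tissue across 13191 genes with edgeR's two-sided quasi-likelihood test, and a gene was called at a Benjamini-Hochberg adjusted p under 0.1. Benign samples 3, 4 and 6 stood apart, because 12 skeletal muscle markers summed to 57000, 38200 and 97100 CPM in them. In benign samples 1, 2 and 5 the same sum was 34.6, 43.8 and 404 CPM, and in tumors it was 1.2 to 159 CPM. List counts are therefore also given without those 3 samples, where 28.7% of 13604 genes tested were called lower and 26.7% higher.

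The labels give benign or tumor and name no cell type, so marker genes were read instead. Acta2, Myh11, Tagln and Cnn1, the smooth muscle markers, and Krt5, Krt14 and Trp63, the basal markers, were all detected in each benign sample. All of these but Krt5 and Krt14 are among the followed genes. The smooth muscle markers do not tell myoepithelial cells from vascular muscle. Krt5 had a lowest value of 53.3, a median of 106 and a highest value of 141 CPM in benign tissue, against 0.275, 1.45 and 14.8 CPM in tumors. Krt14 ran from 40.3 to 118 CPM in benign tissue and from 0.256 to 9.39 CPM in tumors. Tumors thus kept low counts of both keratins, and for neither did the groups overlap. Other basal genes went the other way. Of 20 basal epithelial genes tested, Krt5 and Krt14 among them, 11 were called lower and 7 higher, the latter including Sox10 and Itgb4. Of all genes tested 34.8% were called lower and 28.2% higher.

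Of the 10 genes 8 were lower in tumors, 0 were higher, 1 (Lmod1) was not called and 1 (Myocd) had too few counts for the test. Of all genes tested 34.8% were called lower and 28.2% higher, 63.0% in all, so a fall was common in this comparison. For 8 genes each tumor lay below each benign sample, which was true of 21.2% of all genes tested. Their log2 fold changes had a median of -3.42 over the 9 tested, against -0.0617 over all genes tested. Without benign samples 3, 4 and 6 the count remained 8 lower and 0 higher. In bulk tissue, fewer cells of a type and less RNA per cell cannot be told apart. Actg2, Cnn1 and Oxtr passed the filter on low counts through the benign samples, since only 3, 2 and 5 tumors reached its cutoff of 1.36 CPM, which 6 samples had to reach.

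**Figure D1:**
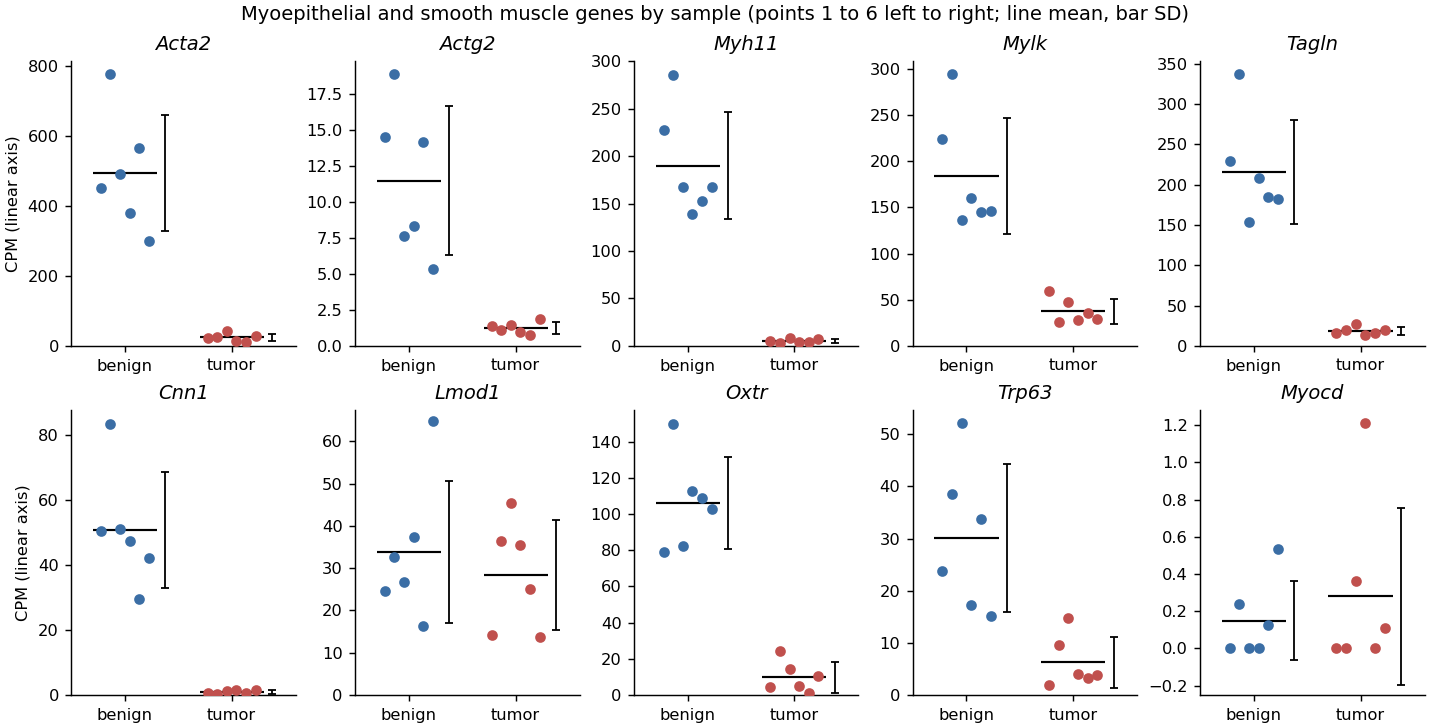
CPM on linear axes, 1 panel for each of the 10 genes, with a point for each of 6 benign samples and 6 tumors in the order of their numbers, a line at the mean and a bar for the SD. For 8 genes all tumors sit below all benign samples, while the groups of Lmod1 (16.4 to 64.8 against 13.7 to 45.5 CPM) and Myocd overlap.

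Acta2 encodes the alpha actin of smooth muscle, the actin by which myoepithelial cells are usually recognised. Its gene lies on the minus strand at chr19:34241090-34255590 (GRCm38, GENCODE M21, ENSMUSG00000035783). In benign tissue it had a lowest value of 301, a median of 472 and a highest value of 776 CPM, and in tumors these were 12, 23.9 and 42.2 CPM. Every tumor was thus far below the lowest benign sample. The means were 494 ± 166 CPM and 24.3 ± 10.8 CPM (SD, n = 6 per group), a 20.3-fold fall (log2 fold change -4.35, SE 0.34, adjusted p = 2.9e-07 by edgeR). Tumors still gave 94 to 351 counts of Acta2. An exact permutation test gave p = 0.00216, the smallest that 924 regroupings allow, and the same value held for each of the 8 genes called. Groups that do not overlap always give this value, so it restates the lack of overlap and adds nothing to it.

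Actg2, the gamma actin of smooth muscle (chr6:83512905-83536265, minus strand), was much less abundant. Its lowest, median and highest values were 5.33, 11.3 and 18.9 CPM in benign tissue and 0.767, 1.25 and 1.87 CPM in tumors. The groups did not overlap, though tumors rested on only 6 to 17 counts. The fall was 9.03-fold (log2 fold change -3.17, SE 0.35, adjusted p = 6.9e-06 by edgeR). Actg2 thus fell beside Acta2, while the actins that all cells use did not fall past the threshold. Actb, beta actin, had a log2 fold change of -0.51 (SE 0.25, adjusted p = 0.10) and was called lower only without benign samples 3, 4 and 6 (-0.78, adjusted p = 0.032). Actg1, gamma actin of the cytoplasm, was called higher at 0.66 (SE 0.24, adjusted p = 0.032), a call lost without those 3 samples (0.459, adjusted p = 0.19). Acta1, the actin of skeletal muscle, ran from 9.45 CPM in benign sample 1 to 19300 CPM in benign sample 6, and its call (-10.04, adjusted p = 0.0026) was also lost without them (-2.92, adjusted p = 0.11).

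Myh11 encodes the heavy chain of smooth muscle myosin, the motor that pulls on these actins (chr16:14194535-14291372, minus strand). Its lowest, median and highest values were 139, 167 and 286 CPM in benign tissue and 2.75, 4.44 and 7.94 CPM in tumors. Even the highest tumor was far below the lowest benign sample. Means of 190.0 ± 56.0 and 5.01 ± 2.02 CPM gave a 37.6-fold fall (log2 fold change -5.23, SE 0.30, adjusted p = 2.1e-08 by edgeR). None of the nonmuscle heavy chains Myh9, Myh10 and Myh14 was called lower. Myh9 (log2 fold change 0.30, adjusted p = 0.44) and Myh10 (-0.13, adjusted p = 0.63) were not called, and Myh14 was called higher (1.04, SE 0.21, adjusted p = 0.0011).

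Mylk encodes myosin light chain kinase, which switches the motor on when calcium and calmodulin rise (chr16:34745210-35002420, plus strand). Its lowest, median and highest values were 136, 153 and 295 CPM in benign tissue and 25.4, 32.3 and 59.6 CPM in tumors. The groups did not overlap, yet tumors kept a clear signal. Mylk fell 4.93-fold (log2 fold change -2.30, SE 0.26, adjusted p = 9.3e-06 by edgeR). The kinase gene has long and short transcripts that these gene counts do not separate, and an antisense gene shares part of its sequence. The striated muscle kinases were not tested. Mylk2 exceeded 10 CPM only in benign samples 3, 4 and 6, and Mylk4 only in benign samples 3 and 6.

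Tagln encodes transgelin (SM22), an actin-binding protein of smooth muscle (chr9:45929619-45936058, minus strand). It had a lowest value of 153, a median of 196 and a highest value of 337 CPM in benign tissue, against 13.8, 17.7 and 27.3 CPM in tumors. The groups stood apart, and tumors were close to each other. The fall was 11.5-fold (log2 fold change -3.53, SE 0.23, adjusted p = 5.1e-08 by edgeR). Of the 31-base words in the transcripts of Tagln, 62.2% also occur in genes annotated on the opposite strand, chiefly Gm48529, and the strand setting of the counting is not given in the sources used here, so part of these counts could belong to either strand. Pcsk7, the other such neighbour, moved the other way (41.3 to 53.8 CPM in benign samples against 66.9 to 108 CPM in tumors).

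Cnn1 encodes basic calponin, which binds actin and slows the motor (chr9:22099216-22109630, plus strand). Its lowest, median and highest values were 29.5, 49.0 and 83.5 CPM in benign tissue and 0.138, 0.861 and 1.54 CPM in tumors. Between 1 and 14 counts remained in a tumor, so the gene was nearly undetected there. With means of 50.7 ± 17.9 and 0.917 ± 0.549 CPM, Cnn1 had the steepest fall of the 9 genes tested, 53.3-fold (log2 fold change -5.74, SE 0.40, adjusted p = 1.1e-07 by edgeR). None of its 31-base words occurs in another gene.

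Lmod1 encodes leiomodin, which seeds actin filaments in smooth muscle cells (chr1:135324807-135368065, plus strand). The benign samples 1 to 6 had 24.5, 32.6, 26.8, 37.4, 16.4 and 64.8 CPM, and the tumors 1 to 6 had 14.2, 36.4, 45.5, 35.4, 25.1 and 13.7 CPM. Only 2 tumors lay below the lowest benign sample, and the groups overlapped widely. The log2 fold change was -0.25 (SE 0.36, adjusted p = 0.58 by edgeR), and the exact permutation test gave p = 0.526. Without benign sample 6 the value was 0.0458 (adjusted p = 0.92), and without benign samples 3, 4 and 6 it was 0.248 (adjusted p = 0.65). The log2 ratio of Lmod1 to Myh11 counts, chosen after the values were seen, ran from -3.21 to -1.36 in benign tissue and from 0.966 to 3.6 in tumors. Its striated relatives Lmod2 and Lmod3 exceeded 10 CPM only in benign samples 3, 4 and 6. Among the tropomodulins, which cap the filaments that leiomodin seeds, Tmod3 had a log2 fold change of -0.07 (adjusted p = 0.72) and Tmod1 one of -8.0, or of -4.31 without those samples. Tmod2 ran from 11.7 to 19.3 CPM in benign tissue and from 0.311 to 1.21 CPM in tumors. Its log2 fold change was -4.39 (adjusted p = 1.3e-07), and -4.19 without those samples.

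**Figure D2:**
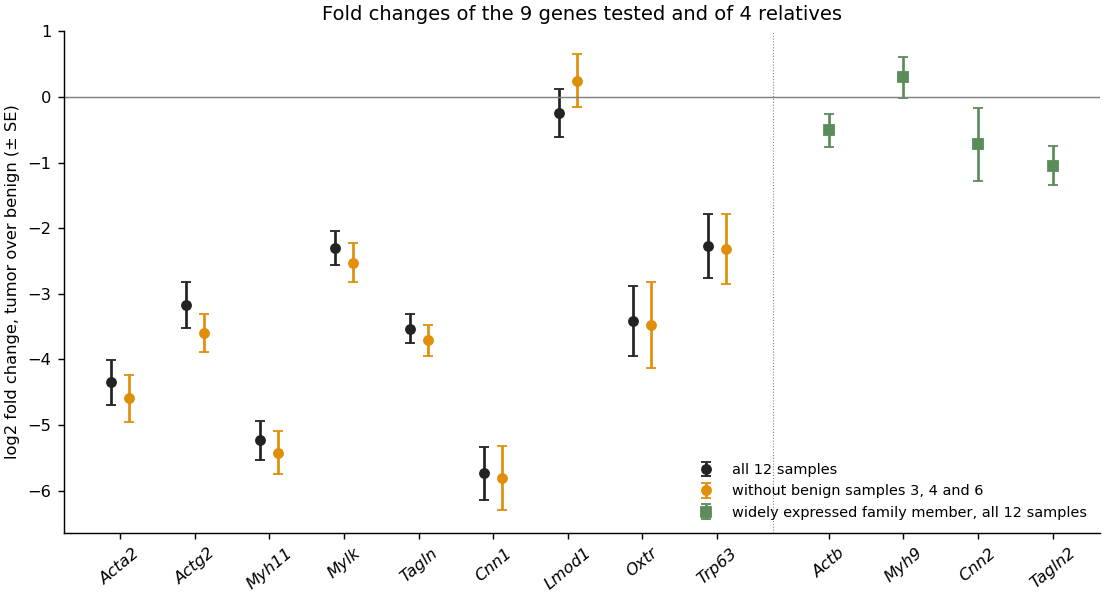
Log2 fold change, tumor against benign, of the 9 genes tested, with the standard error as the bar, for all 12 samples and without benign samples 3, 4 and 6, and of 4 widely used relatives (squares, all samples). Cnn1 (-5.74) and Myh11 (-5.23) lie lowest, and Lmod1 lies at -0.25 with all samples and at 0.248 without the 3 samples.

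RefSeq promoter windows (GRCm38.p6, 250 bases before to 50 after the start) matched 5 of the 10 genes, Acta2, Mylk, Cnn1, Lmod1 and Oxtr. Of these, Acta2, Mylk and Cnn1 fell and Lmod1 did not pass the test, and the 250 bases before their starts are shown so that the windows of genes with different outcomes can be read side by side. Capitals mark CATTCC on either strand, the core of the MCAT element bound by TEAD factors, and CArG boxes with at most 1 departure inside the box.
Acta2: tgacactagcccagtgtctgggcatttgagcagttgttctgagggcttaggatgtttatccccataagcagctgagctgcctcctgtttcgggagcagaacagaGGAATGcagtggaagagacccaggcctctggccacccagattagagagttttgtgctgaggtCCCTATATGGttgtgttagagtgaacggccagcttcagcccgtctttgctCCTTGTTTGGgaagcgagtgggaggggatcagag
Mylk: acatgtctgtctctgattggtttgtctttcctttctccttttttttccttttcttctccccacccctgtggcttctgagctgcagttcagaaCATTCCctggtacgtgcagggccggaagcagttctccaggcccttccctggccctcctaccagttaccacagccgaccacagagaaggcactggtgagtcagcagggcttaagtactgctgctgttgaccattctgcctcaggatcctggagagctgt
Cnn1: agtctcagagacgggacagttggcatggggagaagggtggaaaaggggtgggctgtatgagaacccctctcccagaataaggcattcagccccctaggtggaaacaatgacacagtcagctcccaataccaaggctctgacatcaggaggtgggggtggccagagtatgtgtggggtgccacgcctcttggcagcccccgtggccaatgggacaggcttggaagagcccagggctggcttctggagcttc
Lmod1: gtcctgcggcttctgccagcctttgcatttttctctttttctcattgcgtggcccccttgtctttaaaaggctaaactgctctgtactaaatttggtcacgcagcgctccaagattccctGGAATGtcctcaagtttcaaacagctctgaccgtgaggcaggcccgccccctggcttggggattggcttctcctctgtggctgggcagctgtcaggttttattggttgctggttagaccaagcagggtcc
The stretches are chr19:34255374-34255623 on the minus strand for Acta2, chr16:34784700-34784949 on the plus strand for Mylk, chr9:22099003-22099252 on the plus strand for Cnn1 and chr1:135324563-135324812 on the plus strand for Lmod1. The Mylk stretch lies inside the gene as annotated above, before an internal start rather than the outermost one.

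The Acta2 window held 2 CArG boxes with 1 departure each, 84 and 34 bases before the start, and CATTCC 146 bases before it. Mylk held CATTCC 158 bases and Lmod1 130 bases before the start, without a CArG box of either kind. The windows of Cnn1 and Oxtr held none of these letters. Of 32851 mouse promoter windows of the same length, 1.63% held an exact CArG box, 9.98% one with at most 1 inner departure and 14.7% CATTCC on either strand. The motifs thus did not separate the genes that fell from Lmod1, and a match to letters is not evidence of binding.

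Oxtr encodes the oxytocin receptor, through which the pituitary hormone triggers contraction (chr6:112473683-112489943, minus strand). Its lowest, median and highest values were 79.1, 106 and 150.0 CPM in benign tissue and 1.02, 7.7 and 24.3 CPM in tumors. Benign samples had the smallest relative spread of the 9 genes tested, while tumors ran from 8 to 177 counts and were the most spread of the genes called. Means of 106 ± 25.5 and 9.86 ± 8.53 CPM gave a 10.7-fold fall (log2 fold change -3.42, SE 0.54, adjusted p = 0.00013 by edgeR).

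Trp63 encodes p63, the transcription factor that keeps basal epithelial identity and is not a gene of vascular muscle (chr16:25683763-25892102, plus strand). Its lowest, median and highest values were 15.1, 28.7 and 52.1 CPM in benign tissue and 1.87, 3.95 and 14.7 CPM in tumors. The groups came close, at 14.7 CPM in tumor 3 and 15.1 CPM in benign sample 6, but did not overlap. Trp63 fell 4.81-fold (log2 fold change -2.27, SE 0.48, adjusted p = 0.0015 by edgeR). Its relative Trp53, the tumor suppressor p53, had a log2 fold change of -0.39 (adjusted p = 0.18), or of -0.572 (adjusted p = 0.0048) without benign samples 3, 4 and 6.

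Myocd encodes myocardin, the cofactor of SRF in smooth and cardiac muscle (chr11:65176561-65269989, minus strand). Benign samples 1 to 6 gave 0, 2, 0, 0, 1 and 3 counts, and tumors 1 to 6 gave 0, 0, 3, 9, 0 and 1. Both groups were at or near 0, and the filter removed the gene. An exact permutation test of log2 CPM gave p = 0.773, so a difference was not detectable at this depth.

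Some samples were extreme for several of the genes. Benign sample 2 had the highest value of its group for 7 of the 9 genes tested, and benign sample 6 the lowest for 3. Among tumors, tumor 3 was highest for 5 of the 9, and it also held the highest Krt5 and Krt14. The coefficient of variation in benign tissue ran from 24% for Oxtr to 49.9% for Lmod1.

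Levels can be compared between genes only per length, here as CPM per kilobase of the longest transcript. In benign tissue Acta2 came first (mean 243, range 148 to 382), followed by Tagln (135), Myh11 (29.0), Mylk (23.6), Oxtr (22.5), Cnn1 (21.3), Actg2 (8.61), Lmod1 (8.54), Trp63 (5.61) and Myocd (0.0292). Neighbours in this order overlapped in range, except Tagln with Myh11 and Trp63 with Myocd. In tumors the order was Acta2 (11.9), Tagln (11.7), Lmod1 (7.19), Mylk (4.78), Oxtr (2.1), Trp63 (1.16), Actg2 (0.941), Myh11 (0.765), Cnn1 (0.385) and Myocd (0.0549), and all neighbours overlapped. Lmod1 thus stood in the third place in tumors, and Myh11 in the eighth. With the shortest transcript of each gene, Mylk rose to 114 in benign tissue and 23.1 in tumors. In tumors Mylk then stood at rank 1 and Lmod1 at rank 4, while Myh11 stayed at rank 8.

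**Figure D3:**
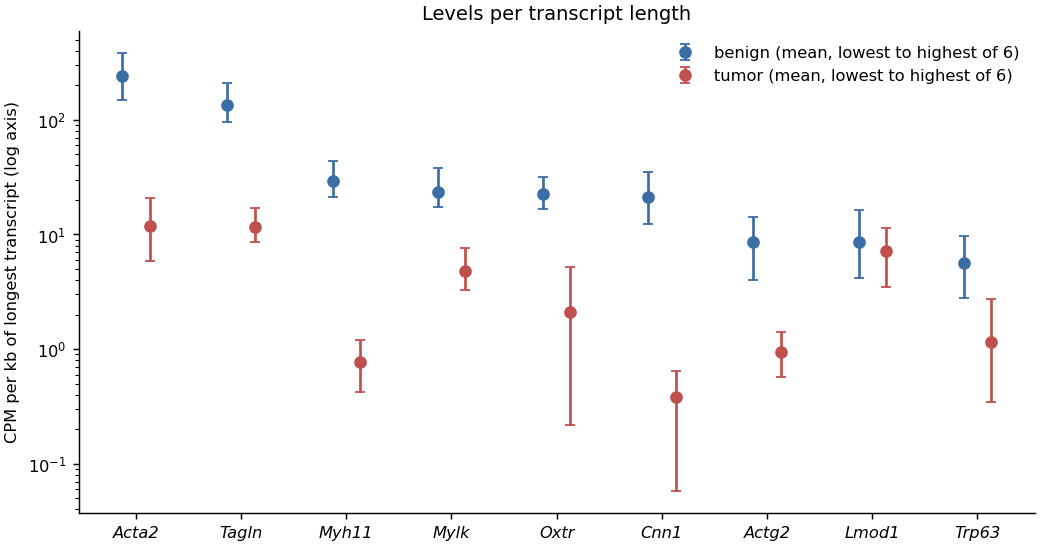
Mean level per length (CPM per kilobase of the longest transcript, log axis) of 9 of the genes, Myocd left out, in benign tissue and in tumors, with the lowest and highest sample of each group. Acta2 leads in both groups (243 and 11.9), and Lmod1 moves from 8.54 to 7.19 while Myh11 moves from 29.0 to 0.765.

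A ratio of a smooth muscle isoform to the widely used member of its family in the same sample does not depend on library scaling. The log2 ratio of Acta2 to Actb was -2.29 ± 0.483 in benign tissue and -6.18 ± 0.602 in tumors, a difference of -3.89. For Myh11 to Myh9 the values were -1.95 ± 0.323 and -7.36 ± 0.893, a difference of -5.41. For Cnn1 to Cnn2 they were -1.01 ± 0.896 and -5.57 ± 1.72, a difference of -4.56. For Tagln to Tagln2, the smallest shift, they were 0.311 ± 0.537 and -2.02 ± 0.723, a difference of -2.33. In each of the 4 ratios all 6 tumors lay below all 6 benign samples (means ± SD, exact permutation test, two-sided, p = 0.00216 and 0.00216 after adjustment over the 4, the smallest possible). That p follows from the separation itself. Of the partners, Tagln2 was itself called lower (log2 fold change -1.05, adjusted p = 0.009) and Cnn2 was not (-0.72, adjusted p = 0.28). Cnn3, the third calponin, was called lower at -0.65 (adjusted p = 0.022).

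**Figure D4:**
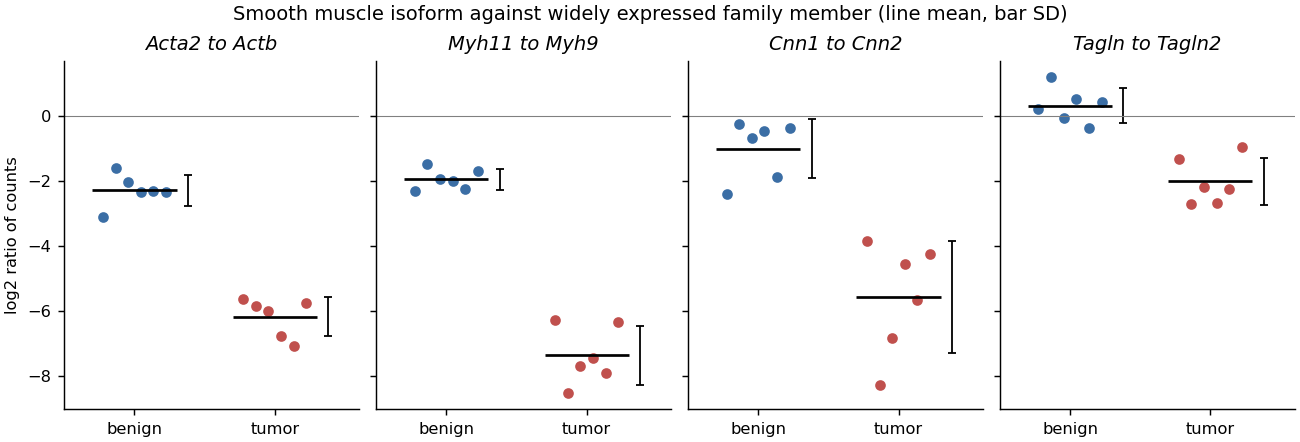
Log2 ratio of counts (2 added to each) of the smooth muscle isoform to its widely used relative in each of the 12 samples, with mean and SD per group. In all 4 ratios the 6 tumors lie below the 6 benign samples, with the largest gap for Myh11 to Myh9 (-1.95 against -7.36).

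Other genes of the contractile apparatus fell in most cases. Of 24 such genes 23 were tested, and 17 were called lower, 2 higher and 4 not, with a median log2 fold change of -2.96, against 34.8% lower and 28.2% higher among all genes tested. Without benign samples 3, 4 and 6 the counts were 15 lower and 2 higher, with a median of -2.44, against 28.7% and 26.7% of all genes tested there. The lowest values were those of Des, the muscle intermediate filament desmin (-7.67), Fhl1, a LIM protein of muscle (-7.54), and Aoc3, an amine oxidase of smooth muscle and adipocytes (-7.20). Des and Fhl1 moved to -3.11 and -4.36 without the 3 samples, and Aoc3 to -7.01. The 2 called higher were Cald1, caldesmon, which binds actin in smooth muscle and other cells (0.70, adjusted p = 0.002), and Smtn, smoothelin (0.68, adjusted p = 0.008). Vcl, vinculin, was the weakest called fall (-0.54, adjusted p = 0.048), and the call was lost without the 3 samples (adjusted p = 0.20). Tpm1, a tropomyosin that striated muscle shares and that was chosen after its values were seen, went from -2.17 to 0.526 (adjusted p = 0.22) without them. Ppp1r14a and Kcnmb1, called lower with at most 1.54 and 0.843 CPM in tumors, passed the filter on low counts only through the benign samples. So did Synm and Nexn, whose lowest tumors had 0.675 and 1.08 CPM, under the cutoff of 1.36 CPM. Such genes could hardly be called other than lower, so the count and the median lean that way. Aoc3 is also a gene of fat, and 8 adipocyte markers summed to 8790 to 22200 CPM in benign tissue and 187 to 322 CPM in tumors. All 8 were called lower, none was at 0 throughout a group, and their part in these values was not tested. Of these markers Adipoq, Plin1, Cidec, Lep and Retn had tumors under the cutoff of 1.36 CPM and passed the filter through the benign samples, so their calls could hardly have been other than lower.

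Myocardin's partners at the CArG box were measured well above the level of Myocd. Srf, named here after its values were seen, ran from 59.5 to 80.6 CPM in benign tissue and from 39.1 to 76.3 CPM in tumors, so the groups overlapped. Its log2 fold change of -0.30 (adjusted p = 0.0997) only just passed the threshold, and it was -0.104 (adjusted p = 0.67) without benign samples 3, 4 and 6. Of the myocardin relatives, Mrtfa was not called (-0.27, adjusted p = 0.32), whereas Mrtfb was called higher (1.08, SE 0.19, adjusted p = 0.00033), with 37.6 to 53.3 CPM in benign tissue and 66.2 to 149 CPM in tumors. The groups of Mrtfb did not overlap.

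Genes listed for oxytocin signalling, most but not all of which act behind the receptor, had no common direction. Of 21 listed genes 20 were tested, and 7 were called lower, 9 higher and 4 not, with a median log2 fold change of 0.224 (7 lower, 9 higher and 0.319 without benign samples 3, 4 and 6). The share called lower was close to the 34.8% of all genes tested, and 28.2% of all genes were called higher. The steepest rise was that of Itpr3, an IP3 receptor that releases calcium from stores, with 31.4 to 102 CPM in benign tissue and 336 to 606 CPM in tumors (log2 fold change 3.06, SE 0.27, adjusted p = 9e-07). Prkca, protein kinase C alpha (1.72, adjusted p = 0.001), and Itpr1, another IP3 receptor (1.57, adjusted p = 1.4e-05), followed. The lowest values were those of Cacna1c, the voltage-gated calcium channel of smooth muscle (-2.38, adjusted p = 6.3e-06), Plcb1, a phospholipase C (-1.53, adjusted p = 0.0015), and Stim1, the calcium sensor of the stores (-1.12, adjusted p = 0.0045). The call on Stim1 was lost without benign samples 3, 4 and 6 (-0.367, adjusted p = 0.12). These genes are used in many cell types, luminal cells among them.

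Basal epithelial genes were called in both directions. Of 23 listed genes 20 were tested, and 11 were called lower, 7 higher and 2 not, with a median log2 fold change of -2.73. Among all genes tested 34.8% were called lower and 28.2% higher, so the higher calls were near the share of all genes. Some of the genes called lower passed the filter on low counts only through the benign samples. Among them were Krt15, Col17a1 and Snai2, with at most 2.53, 3.97 and 1.93 CPM in tumors. Such genes could hardly be called other than lower, so the count and the median lean that way. Without benign samples 3, 4 and 6 the same 20 genes gave 11 lower and 6 higher, with a median of -2.76. In that fit 22 genes were tested, with 12 lower and 7 higher, since Dsc3 (called lower, adjusted p = 0.03) and Dsg3 (called higher, adjusted p = 0.01), both desmosomal cadherins, entered it. The lowest were Krt15, a basal keratin (-5.13, adjusted p = 0.0004), Col17a1, a collagen of hemidesmosomes (-5.13, adjusted p = 2.6e-05), and Krt14 (-4.75, adjusted p = 2.2e-05), with Krt5, its keratin partner, at -4.73 (adjusted p = 8.8e-05). The highest were Sox10, a transcription factor of neural crest and mammary progenitors (2.98, adjusted p = 1.4e-05), Itgb4, the laminin-binding integrin beta 4 (2.29, adjusted p = 8.5e-08), and Perp, a desmosomal protein and p63 target (2.09, adjusted p = 0.00013). Sox10 ran from 37.8 to 230.1 CPM in benign tissue and from 842 to 1133 CPM in tumors. Both of these genes of the same adhesion structure, Col17a1 and Itgb4, thus moved in opposite directions.

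**Figure D5:**
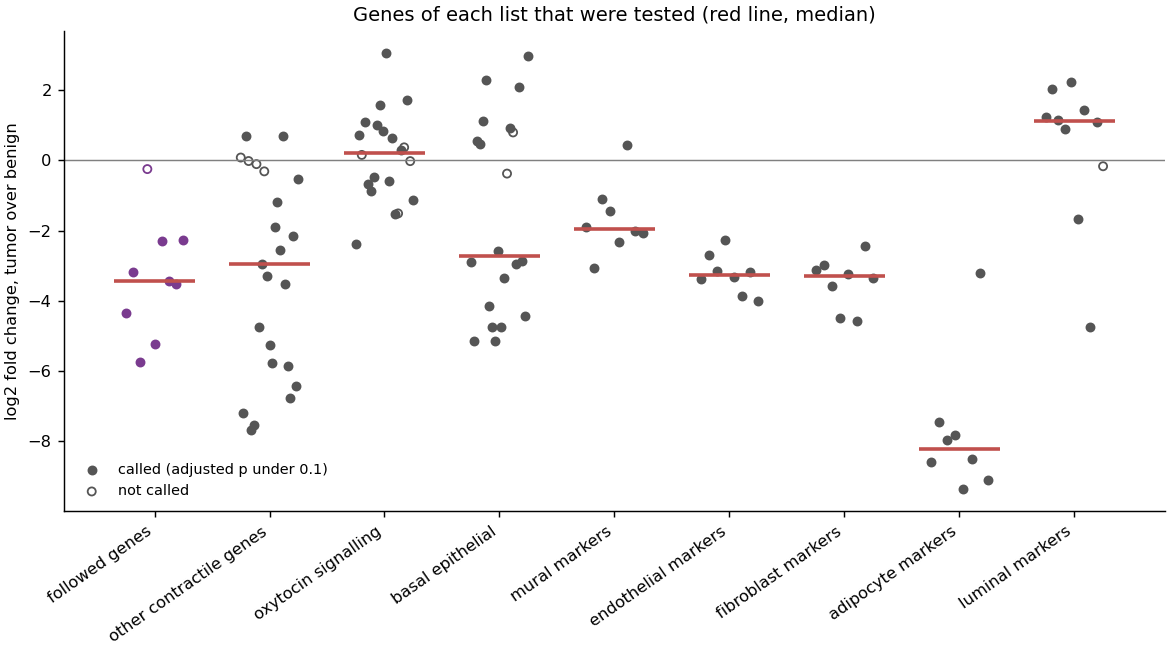
Log2 fold change, tumor against benign, of every gene tested in the followed genes, 3 pathway lists and the marker lists other than skeletal muscle, with filled points for genes called, open points for genes not called and a line at each median. The medians lie at -3.42 for the followed genes, -2.96 for the contractile list, 0.224 for oxytocin signalling and -2.73 for the basal list.

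Markers of vascular mural cells, which share many of these contractile genes, and of other cell types also differed between the groups. The 8 vascular mural markers summed to 860 to 1110 CPM in benign tissue and 357 to 567 CPM in tumors, with 7 called lower and 1 higher (median log2 fold change -1.94). Rgs5, a pericyte marker, fell by 2.06 on the log2 scale (adjusted p = 1.9e-06), and Notch3, the Notch receptor of mural cells, was the 1 called higher (0.43, adjusted p = 0.019), a call lost without benign samples 3, 4 and 6 (adjusted p = 0.13). The mural counts were then 6 lower and 0 higher, since the call on Higd1b, a pericyte gene, was lost too (adjusted p = 0.21). The 8 endothelial markers were all called lower and summed to 699 to 1320 against 98.3 to 121 CPM, and the 8 fibroblast markers were all called lower and summed to 4940 to 13600 against 536 to 1250 CPM. Of the 10 luminal markers 7 were called higher and 2 lower, and they summed to 1190 to 2830 CPM in benign tissue and 3200 to 4800 CPM in tumors. Of 12 skeletal muscle markers 6 were tested and all 6 were called lower, but only 1 of these 6 without benign samples 3, 4 and 6. Each of these 6 was under the filter's cutoff of 1.36 CPM in most tumors, so these calls could hardly have been other than lower. The endothelial, fibroblast, adipocyte and luminal counts were the same without benign samples 3, 4 and 6. Of all genes tested 34.8% were called lower and 28.2% higher, and without those 3 samples these shares were 28.7% and 26.7%. No marker of these lists was at 0 in every sample of a group, and the part of each cell type in the falls above was not tested.

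The genes whose profile over the 12 samples was nearest to the mean profile of the 9 genes tested were Pla1a, Mxra8, Rasip1, Sdk1 and Hspg2. Likeness was the root mean square distance of centred log2 CPM, over 13182 other genes, and it was 0.261 for Pla1a, 0.268 for Mxra8, 0.282 for Rasip1, 0.292 for Sdk1 and 0.293 for Hspg2. Of the 9 genes themselves Tagln was the nearest to that mean (0.189) and Lmod1 the farthest (1.69). The log2 fold changes of the 5 ran from -3.65 for Pla1a to -3.01 for Hspg2, in the range of the genes they were matched to.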

How the data were processed

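RNA was extracted with TRIzol and RNeasy columns, and libraries were made from poly A RNA with a directional kit. Per the submitters' processing notes, reads were trimmed with Trim Galore, quantified with Salmon and analyzed with DESeq2 against mm10. Versions, annotation and strand setting are not given in the sources used here. The authors deposited a table of whole-number estimated counts, unscaled, for 12 samples, with no column left without a sample (0). Each gene sums to at least 5 counts.

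Low genes were removed with filterByExpr (at least 10 counts in a sample and 15 in total, groups given). After TMM scaling, edgeR 4.0.16 (R 4.3.3) ran its quasi-likelihood test, two-sided, with Benjamini-Hochberg adjustment over 13191 genes and the study's threshold of 0.1. CPM uses the scaled library sizes of the kept genes, and log2 CPM adds 2 counts. The SE of a log2 fold change is approximate. It was taken as the absolute log2 fold change divided by the square root of the F statistic, since the test itself reports none. The common biological coefficient of variation was 0.3505. Ratios were compared by exact permutation. The lowest chi-square per degree of freedom between replicates was 12.51 in benign tissue and 16.44 in tumors, so no library was a duplicate.

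The 10 genes and all lists were chosen with earlier results of these data known, so list counts are descriptions. Named were the 10 genes, the 3 lowest and 3 highest called genes of each pathway list (1 list is not reported here), relatives in the ratios or above 10 CPM, defining markers, and the 5 nearest profiles. Gene models came from GENCODE M21 (GRCm38), perhaps unlike the authors' annotation, and promoters from RefSeq (GRCm38.p6). No promoter was used for Actg2, Myh11, Tagln, Trp63 or Myocd. The test was tried on simulated counts for 13191 genes, of which 200 were changed. It found 100% of those 200, while 8.3% of what it called had not been changed. For DESeq2 on the same counts these were 100% and 19.7%. The simulation gave every gene the same dispersion and changed few genes by large amounts. In the data 63.0% of genes were called, so these rates are not the error rates of this comparison. Alternatives were DESeq2 1.42.0, other scalings, filters and added counts, an adjusted p of 0.05 as threshold, a replicate block, and leaving out each sample or benign samples 3, 4 and 6. Replicate numbers did not pair the samples, which came from different mice.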

Additional observations from a re-analysis of the deposited data

Results flagged for a closer look

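Tumor 4 stood apart from the other tumors in Myocd, with 1.21 CPM against 0.361 CPM in the next highest tumor. This gap was 0.703 of the range of the 6 tumors, above the critical value of Dixon's test. It rests on 9 counts. It was the only 1 of 28 groups of values checked to stand out in this way, and about 1 in 20 does so by chance.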

How the results depend on the processing

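For the 8 genes called lower, each alternative in which the gene was tested kept direction and call. With at least 10 counts required in every sample, 6 of the 10 genes were tested and 5 were called lower. In that setting 13 basal genes were tested, with 4 called lower and 7 higher, against 11 and 7 of 20 with the main filter. The stricter filter takes out genes with few counts in a group, so the basal list lost lower calls and kept as many higher ones. Of all 11227 genes tested there, 3247 were called lower and 3681 higher. Leaving out each sample in turn gave 8 of the 10 genes lower throughout. Lmod1, never called, ran from -0.39 to 0.0458 when each sample was left out, changing sign without benign replicate 6 (0.0458) and without benign samples 3, 4 and 6 (0.248). The 4 ratios kept their direction and their side of the threshold. With the replicate number as a block, 8 of the 10 genes were lower and 0 higher, and no list count moved by over 1.5 times. Same-numbered samples deviated together with r of -0.124 to 0.103 over 6 pairs, and 0 of 12 samples correlated best with its own number. Standard errors of the log2 fold changes were smallest for Tagln (0.23) and largest for Oxtr (0.54).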

Other observations

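A relative of p63 and an adhesion gene of basal cells, both outside the tested genes and chosen after their values were seen, also differed in level. Trp73, the gene of the p63 relative p73, ran from 1.11 to 3.3 CPM in benign tissue (6 to 25 counts) and from 0 to 0.481 CPM in tumors (0 to 4 counts). Dsg3, a desmosomal cadherin of basal cells, had 0 counts in every benign sample and 4 to 188 counts in tumors, or 0.439 to 24 CPM. Neither passed the filter on low counts with all samples, so neither was tested in that comparison. Dsg3 entered the fit without benign samples 3, 4 and 6 and was called higher there (adjusted p = 0.01 by edgeR).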
